A study of Mus musculus with 3 samples.

Results

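Microglia that yielded many RNA molecules were described here, in single-cell RNA sequencing of brain cells sorted as CD11b+CD45lowCx3cr1+. A unique molecular identifier (UMI) is a tag that marks 1 captured RNA molecule. The cells, called RNA-rich below, were chosen by their measured UMIs, as barcodes with at least 12000 UMIs, more than 200 and at most 8000 genes, at most 10% of UMIs in mitochondrially encoded genes, fewer than 5 UMIs over the border macrophage genes Mrc1, Ms4a7, Cd163, Lyve1 and Cbr2, and fewer than 5 over the monocyte genes Plac8, Ly6c2 and Chil3. The study reports that its quality control set aside cells with higher RNA content, while their counts are part of the deposited matrices. Its listed limits are on genes, mitochondrial counts and a minimum of molecules, with no upper limit on UMIs. The cells chosen here met its limits of 8000 genes and 10%, and which of them the study kept is not given. RNA-rich cells numbered 1613 of 18340 barcodes, with 622 in the hCD33m library, 543 in hCD33M and 448 in control. They were set against cells of 3000 to under 8000 UMIs from the same library that met the other limits, called comparison cells, which numbered 3257 in hCD33m, 2507 in hCD33M and 2697 in control. hCD33m and hCD33M are the short and the long isoform of human CD33, a sialic acid-binding receptor of myeloid cells, and the hCD33m transgene was a floxed-stop construct in Rosa26 from 1 embryonic stem cell clone, turned on in Cx3cr1-expressing cells by Cre. The hCD33M transgene was made by the same method, and the control is labelled as wild type. All mice were 8 weeks old, brains were handled cold with inhibitors of transcription and translation, and each genotype is 1 library made from pooled mice. The spread between mice is therefore not measured, ratios between genotypes have no replicate check, and no p-value is given for any result.

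Microglia are the resident macrophages of the brain. P2ry12, a purinergic receptor for nucleotides, and Tmem119, a membrane protein, mark the homeostatic state of these cells, and Sall1 is a transcription factor that maintains their identity. The number of UMIs per droplet depends on how much RNA a cell holds, on how well that RNA is captured and on how many cells share the droplet, and the count alone does not separate these. The profile of RNA-rich cells is therefore given as counts per 1000000 UMIs (CPM). For each gene, the UMIs of all cells in a class of 1 library were added up and divided by the class total, so that a difference in total RNA cancels and only the composition of the RNA remains.

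The libraries held 40629705 UMIs over 6257 barcodes in hCD33m, 36413491 over 5920 in hCD33M and 32272657 over 6163 in control. RNA-rich cells contributed 12344757, 12087610 and 9067254 UMIs in hCD33m, hCD33M and control, so the gene sums that follow rest on many molecules each. By its label the hCD33m library came from female mice, whereas hCD33M and control are labelled male. The RNA-rich cells of the library labelled hCD33m held 0 UMIs of the X-inactivation RNA Xist and 96.2 CPM of the Y-linked gene Ddx3y, against 112 CPM of Ddx3y in hCD33M and 101 CPM in control, so the sex label of that library went against its data. Between 13 and 21 barcodes per library also occurred in another library, among them 0 RNA-rich cells in hCD33m, 1 in hCD33M and 3 in control. No doublet caller was run. Droplets that captured more than 1 cell were limited only by the upper bound on genes, which removed 22 barcodes of at least 12000 UMIs in hCD33m, 36 in hCD33M and 8 in control, and their part in the results was not tested.

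The summed share of the microglia markers was slightly smaller in RNA-rich than in comparison cells. Much of each sum was the single gene Cst3, whose share was lower, as given below. By mean log2 ratio of RNA-rich over comparison cells, 7 of the 20 markers lay above 0 and 13 below, with a median of -0.02. The 20 markers listed summed to 110690 CPM in RNA-rich and 119083 CPM in comparison cells of hCD33m. The sums were 111496 and 120958 CPM in hCD33M, and 115524 and 124043 CPM in control. P2ry12 was found in 100% of the RNA-rich cells of each library. Cells chosen for many UMIs could hardly lack it, so this does not test the label of microglia. All 20 markers passed the limit on low values, but that limit is on a mean over both classes and does not test the label either. Markers of other cells were at sums of a like order in both classes, other than those of border macrophages and red blood cells. Their part in the results was not tested. The sums of neuron, oligodendrocyte, astrocyte and neutrophil markers were higher in RNA-rich cells in each library, and those of endothelial and mural markers were lower. The 12 neuron markers summed to 7.9 to 10.0 CPM over the 3 libraries, against 7.6 to 9.1 CPM in comparison cells, and the 10 oligodendrocyte markers to 104 to 117 CPM, against 101 to 106 CPM. The 10 astrocyte markers summed to 205 to 252 CPM, against 189 to 227 CPM, and the 11 endothelial and mural markers to 505 to 550 CPM, against 520 to 573 CPM. The 10 neutrophil markers summed to 251, 287 and 290 CPM in hCD33m, hCD33M and control, against 207, 234 and 258 CPM. Only Csf3r of that list passed the limit on low values, with a mean log2 ratio of 0.25. The 14 lymphocyte markers summed to 283 to 360 CPM, against 298 to 348 CPM. None of these lists of other cells made up a sizeable share of the RNA. The 13 monocyte markers summed to 417 to 487 CPM, against 414 to 473 CPM, and nearly all of that was Lyz2, the lysozyme that microglia express as well. The 14 border macrophage markers summed to 169 to 287 CPM, against 112 to 224 CPM, and the 4 of them that passed the limit on low values were the MHC class II genes taken up again below. The 5 border macrophage genes of the selection are low by construction. Mrc1 was the most abundant of them, with 6.08 CPM in hCD33m, 11.4 CPM in hCD33M and 9.82 CPM in control, against 5.52, 10.6 and 7.91 CPM in the comparison cells of hCD33m, hCD33M and control.

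RNA-rich cells made up 10.5% of the cells that met the other limits in hCD33m (exact 95% interval 9.70% to 11.3%), 9.62% in hCD33M (8.86% to 10.4%) and 7.70% in control (7.03% to 8.42%). The intervals cover counting error only. Although few, these cells held 33.4% of the UMIs of the cells that met the other limits in hCD33m, 37.9% in hCD33M and 29.7% in control. Their median was 16458 UMIs and 4675 genes in hCD33m, 18401 UMIs and 4962 genes in hCD33M, and 17012.5 UMIs and 4701 genes in control, against 4955 UMIs and 2191 genes, 4922 UMIs and 2186 genes, and 5128 UMIs and 2243 genes in the comparison cells of hCD33m, hCD33M and control. These values follow from the selection and carry no test. The limit cut through a continuous range. Cells just inside it, of 12000 to under 14000 UMIs, numbered 175 in hCD33m, 108 in hCD33M and 118 in control, and cells just outside it, of 10000 to under 12000 UMIs, numbered 282, 189 and 190 in hCD33m, hCD33M and control. P2ry12 was at 3344, 3532 and 3428 CPM just inside, and at 3385, 3548 and 3427 CPM just outside, in hCD33m, hCD33M and control.

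RNA-rich cells had nearly the RNA composition of their shallower neighbours. A gene was called where its CPM differed by at least 1.5-fold in the same direction in all 3 libraries with a 95% counting interval off no difference, and it was counted where it had a mean of at least 20 CPM over the 6 sums of 3 libraries and 2 classes. Of 6664 genes counted, 0 were called higher (0% of the genes) and 0 were called lower (0%). Under the alternatives that kept the limit of 1.5-fold, 0 to 4 genes were called higher and 0 to 1 lower. In all 3 libraries at once, 92.1% of the genes lay less than 25% above or 20% below the comparison cells, and 99.7% lay within 1.5-fold. The median log2 ratio over all genes was 0.04 in hCD33m, 0.05 in hCD33M and 0.05 in control, and the range that held the middle 90% of genes was -0.16 to 0.26, -0.18 to 0.29 and -0.18 to 0.28 in hCD33m, hCD33M and control. Per cell, the UMIs of the median gene were 4.04-fold higher in the RNA-rich cells of hCD33m, 4.58-fold in hCD33M and 4.02-fold in control, close to the ratio of mean total UMIs of 3.92, 4.43 and 3.89 in the same libraries.

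**Figure D1:**
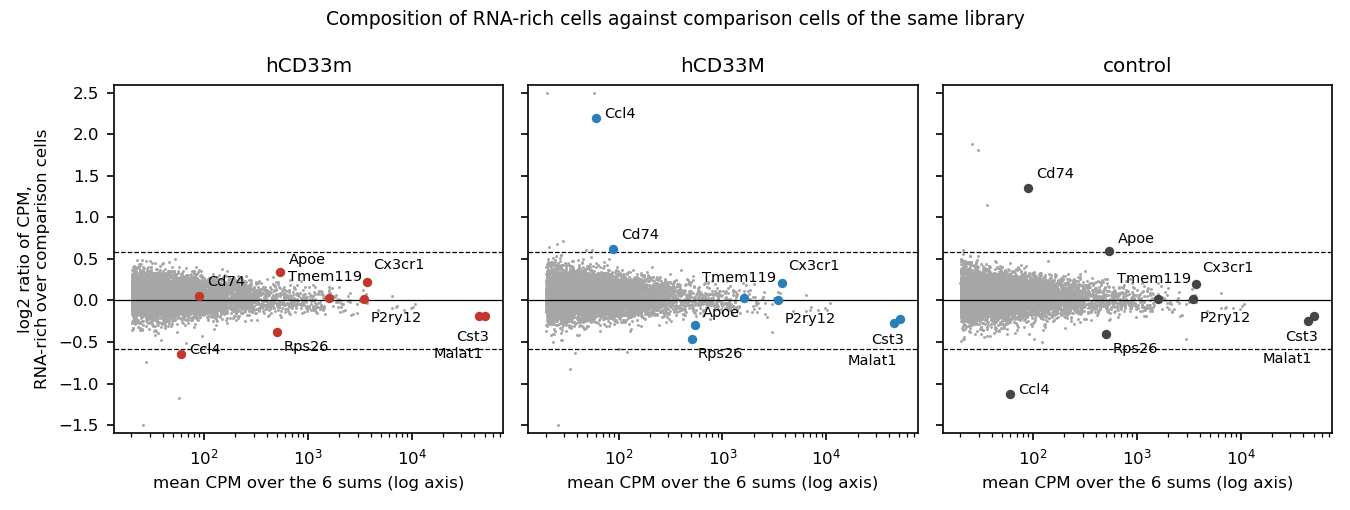
Each grey point is 1 of 6664 genes, with its mean CPM on a log axis and its log2 ratio of CPM in RNA-rich over comparison cells, in 1 panel per library; dashed lines mark 1.5-fold, ratios beyond -1.5 and 2.5 are drawn at those limits, and coloured points are named genes. P2ry12 and Tmem119 sit on the zero line in all 3 panels, Cx3cr1 sits slightly above it, Cst3, Malat1 and Rps26 sit below it, and Ccl4, Cd74 and Apoe change place between panels.

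The defining markers scaled with total RNA. P2ry12 (mm10 chromosome 3, 59216272 to 59262871) averaged 68.0 UMIs per RNA-rich cell in hCD33m, 78.6 in hCD33M and 70.0 in control, against 17.1, 17.7 and 17.8 UMIs per comparison cell in hCD33m, hCD33M and control. As CPM it was at 3426 in RNA-rich cells and 3380 in comparison cells of hCD33m, 3529 and 3518 in hCD33M, and 3461 and 3416 in control, a mean log2 ratio of 0.01 ± 0.01 (SD, n = 3 libraries). Tmem119 (mm10 chromosome 5, 113793729 to 113800516) was at 1532 CPM in RNA-rich cells and 1495 CPM in comparison cells of hCD33m, 1731 and 1702 CPM in hCD33M, and 1574 and 1560 CPM in control, a mean log2 ratio of 0.02 ± 0.01. Both ratios are smaller than the shift of 0.05 that scaling by the trimmed mean of M-values (TMM) makes, and their sign turns under it. Other genes of the microglia list moved apart from each other by small amounts. Cx3cr1, the fractalkine receptor whose promoter drives the Cre, was at 3963, 4117 and 3831 CPM in the RNA-rich cells of hCD33m, hCD33M and control, against 3385, 3555 and 3350 CPM, with a log2 ratio of 0.21 ± 0.02. Sall1 was at 460, 475 and 483 CPM, against 417, 415 and 414 CPM, with a log2 ratio of 0.19 ± 0.04. Cst3, the secreted protease inhibitor cystatin C and the most abundant gene of these cells, was at 48908, 45394 and 47979 CPM, against 55732, 52767 and 54589 CPM, with a log2 ratio of -0.20 ± 0.02. Gpr34 had a log2 ratio of -0.13 ± 0.005 and Fcrls of -0.10 ± 0.03, while Csf1r, the receptor on which microglia depend for survival, had one of 0.08 ± 0.01.

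Small shifts recurred from library to library. The counting interval lay off no difference in the same direction in all 3 libraries for 729 genes that were higher (10.9% of the genes counted) and for 216 that were lower (3.24%) in RNA-rich cells. At a limit of 25% higher or 20% lower in all 3 libraries, 3 genes were higher (0.045%) and 5 were lower (0.075%). These were Myo1c, Setd7 and Tmem50b, and Gm15655, Gm26669, Gm26699, Gm26735 and Rps26. As no gene was called at 1.5-fold, the genes named next were picked by the size of their mean ratio among genes of at least 50 CPM, after their values were seen.

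Among the genes that were lower, Rps26 (mm10 chromosome 10, 128624534 to 128626747), a protein of the small ribosomal subunit, was at 453, 399 and 442 CPM in the RNA-rich cells of hCD33m, hCD33M and control, against 592, 551 and 587 CPM in the comparison cells. Its log2 ratio was -0.42 ± 0.04, and the 3 RNA-rich values lay below the 3 comparison values. Processed copies of ribosomal protein genes are common in the genome, and how reads were split among them is not given in the sources used here. Gm42418 and AY036118, annotated transcripts that overlap ribosomal RNA repeats, had log2 ratios of -0.33 ± 0.16 and -0.46 ± 0.19, with the smaller change of both in hCD33m. Malat1, an abundant RNA retained in the nucleus, was at 42616, 41986 and 37563 CPM, against 48669, 50620 and 44639 CPM, with a log2 ratio of -0.24 ± 0.04. Gm26669 had a log2 ratio of -0.53 ± 0.06, Gm26699 of -0.43 ± 0.08 and B430010I23Rik of -0.32 ± 0.10. Further coding genes on this side were the chemokine gene Ccl6 (-0.33 ± 0.04), the respiratory complex I subunit Ndufa6 (-0.32 ± 0.04), the vitamin K epoxide reductase subunit Vkorc1 (-0.30 ± 0.10), the cargo receptor Cnih1 (-0.26 ± 0.02) and Eif2s2, the beta subunit of the translation initiation factor eIF2 (-0.27 ± 0.02).

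Among the genes that were higher, Tmem50b (mm10 chromosome 16, 91574503 to 91597800) was at 87.0, 82.6 and 87.9 CPM in the RNA-rich cells of hCD33m, hCD33M and control, against 68.2, 66.0 and 68.6 CPM, with a log2 ratio of 0.34 ± 0.02. Setd2, the methyltransferase that writes the lysine 36 mark on histone H3 in transcribed genes, was at 135, 136 and 130 CPM, against 108, 110 and 103 CPM, with a log2 ratio of 0.32 ± 0.01. Myh9, the heavy chain of nonmuscle myosin, was at 182, 177 and 194 CPM, against 142, 143 and 157 CPM, with a log2 ratio of 0.32 ± 0.03. In each of these 3 genes, every RNA-rich value lay above every comparison value. Ankrd13a (0.40 ± 0.11), the Golgi tethering protein Golga4 (0.38 ± 0.11), the focal adhesion protein Tns1 (0.36 ± 0.14), the adhesion kinase Ptk2b (0.33 ± 0.04), Phf21a (0.33 ± 0.06), Ylpm1 (0.33 ± 0.03) and the autophagy scaffold Wdfy3 (0.33 ± 0.09) followed.

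Transcript length ran through these shifts. Coding genes were placed in 5 equal groups by the length of their longest annotated transcript, for 6524 genes. The median log2 ratio of the shortest group, with a median length of 1394 nucleotides, was -0.05 in hCD33m, -0.06 in hCD33M and -0.06 in control. That of the longest group, with a median of 7095 nucleotides, was 0.13, 0.15 and 0.14 in hCD33m, hCD33M and control. The groups between lay in order, with 24.8% of the genes above 0 in the shortest group and 92.4% in the longest. Across genes, Spearman's rho between length and ratio was 0.51 in hCD33m, 0.50 in hCD33M and 0.49 in control, and 0.60 to 0.61 over the 1745 coding genes of at least 100 CPM. Genes within 1 library share its cells and its depth and are not independent, so these values are descriptions. With GC content, rho was 0.04, 0.06 and 0.04, and with mean CPM it was -0.10, -0.08 and -0.09, in hCD33m, hCD33M and control. Some genes stood apart from their length group. Eif2s2, with 4102 nucleotides, lay 0.37 below the median of its group on the log2 scale, and Rps26, with 903 nucleotides, lay 0.36 below its own.

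**Figure D2:**
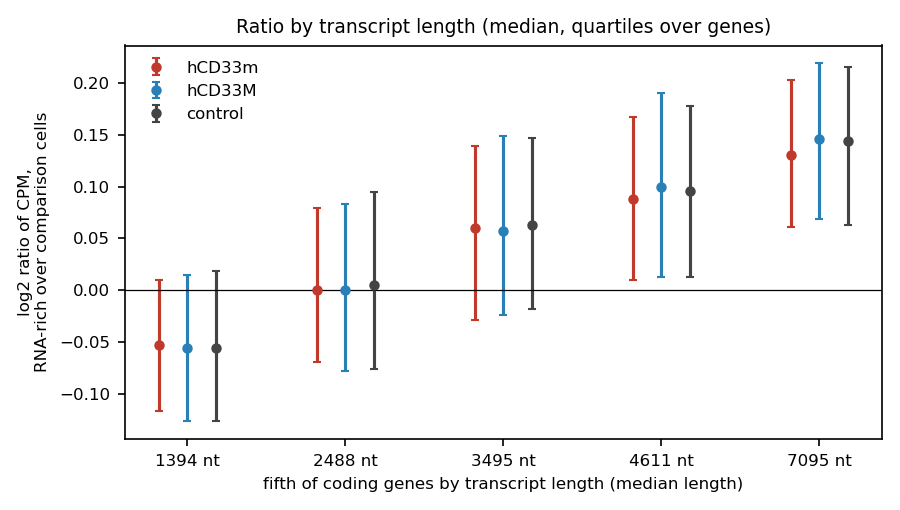
Median log2 ratio of CPM in RNA-rich over comparison cells for 5 groups of coding genes by length of the longest transcript, with bars from the lower to the upper quartile over genes and 1 colour per library. The medians climb from about -0.06 in the shortest group to 0.13 to 0.15 in the longest, and the 3 libraries overlie one another.

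The shifts were graded within the RNA-rich cells. Rps26 was lower in each deeper class, at 505, 454, 419 and 383 CPM in hCD33m cells of 12000 to under 16000, 16000 to under 24000, 24000 to under 40000 and at least 40000 UMIs. In the same classes it was at 441, 436, 366 and 340 CPM in hCD33M, and at 501, 458, 406 and 349 CPM in control. Malat1 ended at 37449, 35357 and 32100 CPM in the cells of at least 40000 UMIs in hCD33m, hCD33M and control, below each shallower class of its library. Cx3cr1 ended at 4374, 4324 and 4176 CPM, above each shallower class. P2ry12 showed no such grade, with 3340 to 3529 CPM over the 4 classes in hCD33m, 3485 to 3613 CPM in hCD33M and 3434 to 3479 CPM in control. Setd2 and Wdfy3 were higher in every RNA-rich class than in the comparison cells but not in a steady order in all libraries, at levels where a class holds few UMIs of the gene. The deepest class rested on 24 cells in hCD33m, 46 in hCD33M and 29 in control.

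**Figure D3:**
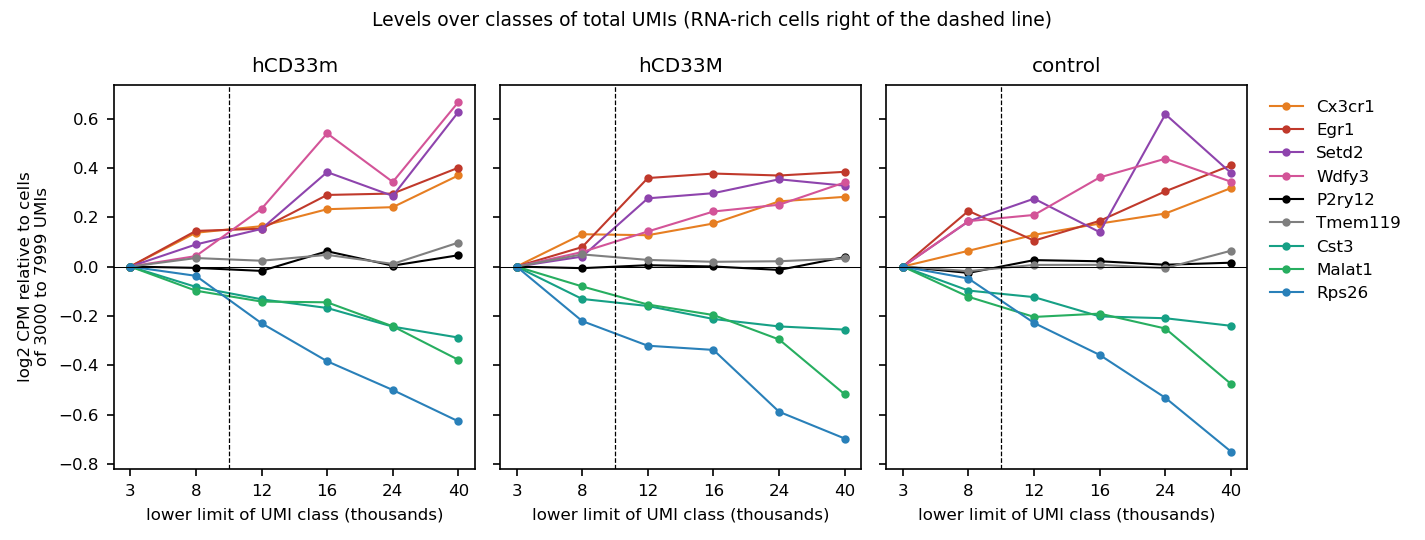
CPM of 9 genes in 6 classes of total UMIs, as log2 relative to cells of 3000 to under 8000 UMIs, in 1 panel per library; the horizontal axis gives the lower limit of each class, and RNA-rich classes lie right of the dashed line. P2ry12 and Tmem119 stay near zero in all classes, Rps26, Malat1 and Cst3 go down, and Cx3cr1 goes up.

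Gene lists moved by little and none stood out by calls. Over 45 lists, 0 members were called at 1.5-fold in all 3 libraries, and lists are set below against the median log2 ratio of all genes, 0.05, by their own medians and by how many members had their interval off no difference in all 3 libraries. Over all genes counted, that share was 10.9% for higher and 3.24% for lower genes. Counting intervals narrow with more UMIs, so lists of abundant genes reach this count at smaller shifts than most genes, and the share is not matched for level. Of 17 microglia identity transcription factors, 9 were higher and 0 lower by that count, with a median of 0.10 and with Sall3 at 0.25 ± 0.01, Sall1 at 0.19 ± 0.04 and Runx1 at 0.14 ± 0.06. Long transcripts prevail in this list, and against coding genes of the same length group its median was 0.02. Of 20 microglia markers, 5 were higher and 8 lower, with a median of -0.02. Complement genes were divided the same way, with the receptor subunits Itgam (0.21 ± 0.04) and Itgb2 (0.15 ± 0.03) and the anaphylatoxin receptor C3ar1 (0.12 ± 0.01) higher, and the secreted C1q chains C1qb (-0.10 ± 0.01) and C1qa (-0.09 ± 0.03) lower. Among phagocytosis receptors, the signalling adaptors Tyrobp (-0.18 ± 0.02) and Fcer1g (-0.10 ± 0.01) were lower and the scavenger receptor Stab1 (0.21 ± 0.08) was higher. Against coding genes of the same length group, the median turned from 0.08 to -0.02 for the complement list. For the phagocytosis receptors it turned from 0.04 to -0.03. Mouse Cd33, the endogenous relative of the transgenes, had a log2 ratio of 0.10 ± 0.04. Human CD33 transcripts were not measured by these counts.

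The machinery of protein synthesis showed no common shift upward. Of 80 cytoplasmic ribosomal protein genes measured, 33 were lower and 6 higher by their intervals, with a median of -0.05 in hCD33m, -0.04 in hCD33M and -0.05 in control, the median of the shortest length group being -0.06. Rpl23a (0.16 ± 0.03) and Rpl4 (0.13 ± 0.01) were at the upper end. Of 26 translation factors, 5 were higher and 3 lower, with the elongation factor Eef2 at 0.22 ± 0.03, the scaffold Eif4g1 at 0.22 ± 0.07 and the initiation factor subunit Eif3f at -0.18 ± 0.05. Of 16 genes of ribosome biogenesis and the nucleolus, 0 were higher and 0 lower. Among 7 measured genes of Myc and its partners, the count was also 0 and 0. Of 21 genes of RNA polymerase II and elongation, 2 were higher and 0 lower, among them the Mediator subunit Med13 (0.19 ± 0.04). The splicing factors Ddx17 (0.29 ± 0.03) and Prpf8 (0.28 ± 0.06) were higher and Ddx5 (-0.12 ± 0.05) was lower among 26 in that list. The medians of the translation, polymerase, splicing and Myc lists change sign under TMM scaling.

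Respiratory chain transcripts parted by genome. Of 12 mitochondrially encoded genes measured, 6 were higher and 0 lower, with a median of 0.09 and with mt-Nd3 at 385, 369 and 395 CPM in the RNA-rich cells of hCD33m, hCD33M and control, against 332, 311 and 341 CPM, a log2 ratio of 0.23 ± 0.02. Of 38 nuclear-encoded respiratory chain genes, 0 were higher and 6 lower, with a median of -0.07 and with Ndufs7 at -0.19 ± 0.03 and Cox5a at -0.18 ± 0.03. The mitochondrial transcripts are short, with a median of 870.5 nucleotides, and against their length group they lay 0.15 higher by the median, whereas the nuclear-encoded ones, of 870 nucleotides, lay 0.02 below their length groups. The median mitochondrial share per cell was 1.38% in RNA-rich cells and 1.23% in comparison cells of hCD33m, 1.34% and 1.15% in hCD33M, and 1.57% and 1.40% in control. The median log2 ratio of the mitochondrially encoded genes depended on the comparison cells used. It was 0.17 against those of 3000 to under 5000 UMIs. Against those of 5000 to under 8000 UMIs it was 0.03, where all genes had 0.05. Of 27 proteasome subunits, 0 were higher and 1 was lower, with a median of -0.07, and of 27 genes of endoplasmic reticulum chaperones and the translocon, 1 was higher and 9 were lower, with the signal peptidase subunit Spcs1 at -0.20 ± 0.01 and the translocon channel Sec61a1 at 0.24 ± 0.10. Of 26 lysosome genes, 6 were higher and 6 lower, with the proton pump subunit Atp6v1a at 0.21 ± 0.06 and prosaposin, Psap, at 0.18 ± 0.02 on one side and Cd68 at -0.18 ± 0.03 on the other.

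State markers moved little as well. Of 14 disease-associated microglia genes measured, 1 was higher and 5 lower, beside 10.9% and 3.24% of all genes. Their median was -0.06, or -0.09 against the length groups. Of 10 interferon-stimulated genes, 0 were higher and 0 lower. Of 20 genes of NF-kB and MyD88 signalling, 3 were higher and 0 lower, close to the 10.9% and 3.24% of all genes, with the kinase Irak1 at 0.20 ± 0.03 and Tnfaip2 at 0.24 ± 0.05, and a median of 0.09, or 0.04 against the length groups. Of 17 genes of mTORC1 signalling and amino acid transport, 5 were higher and 0 lower, beside the same 10.9% and 3.24%, with a median of 0.07, or 0.05 against the length groups. Of 13 glycolysis genes, 1 was higher and 0 lower. Transcripts of dividing cells were scarce. The proliferation genes Mki67 and Top2a had 9 and 28 UMIs in all RNA-rich cells of hCD33m, 5 and 10 in hCD33M, and 0 and 3 in control, with 23 of the 28 Top2a UMIs of hCD33m in 1 cell.

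**Figure D4:**
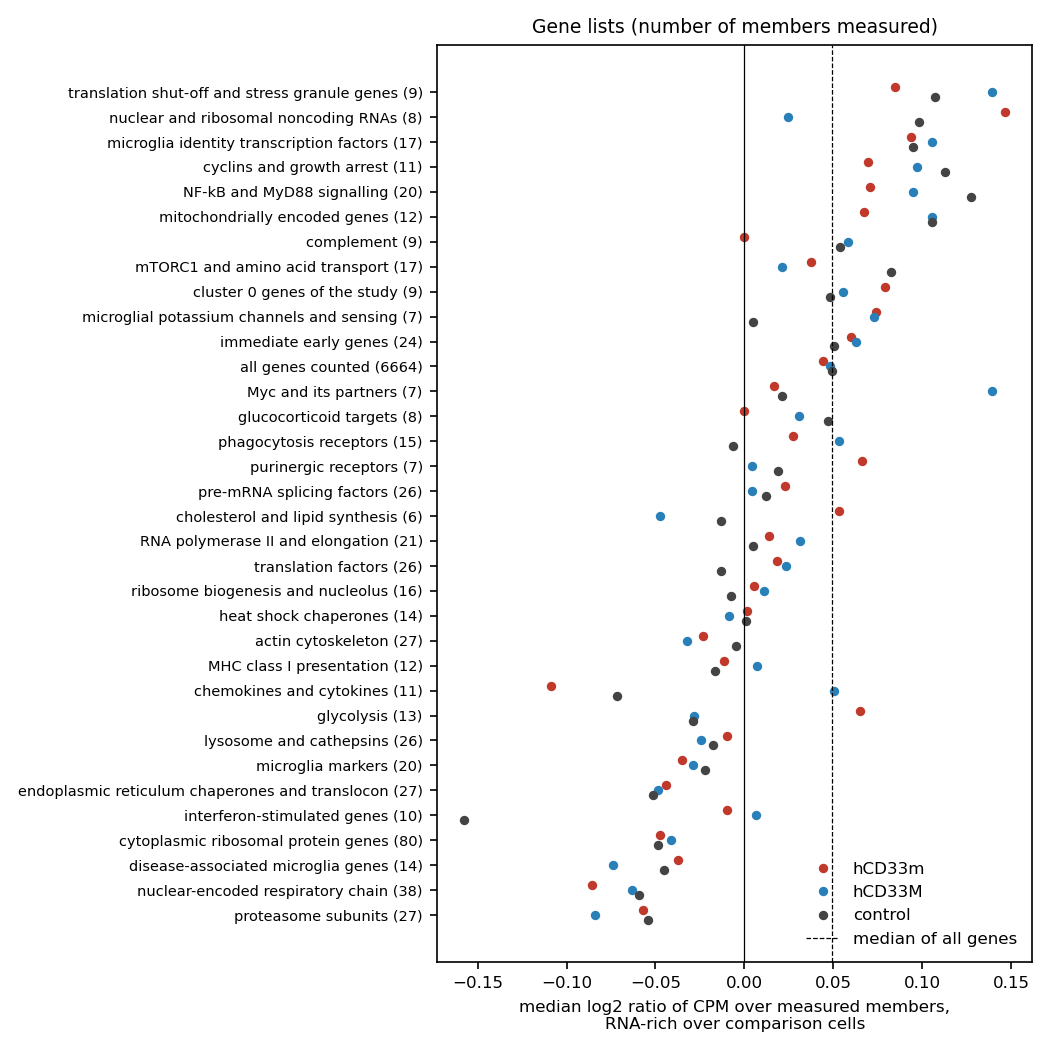
Median log2 ratio of CPM in RNA-rich over comparison cells over the measured members of each list with at least 6 of them, 1 point per library, with the number of measured members in brackets and a dashed line at the median of all genes, 0.05. All medians lie between about -0.16 and 0.15, with proteasome and nuclear-encoded respiratory chain lists below zero and microglia identity transcription factors above the dashed line in all 3 libraries.

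When depth was made equal, RNA-rich cells still held slightly more genes and were more alike. Each cell was thinned to 3000 UMIs drawn at random from its own, which left out no cell of either class. The median was then 1627 genes per RNA-rich cell and 1563 per comparison cell in hCD33m, 1638 and 1565 in hCD33M, and 1621 and 1555 in control, a difference of 64, 73 and 66 genes in the 3 libraries, which is smaller than the SD of 74.0, 75.9 and 79.7 genes among comparison cells. The spread of each gene between cells was measured by the Fano factor, the variance over the mean, which is close to 1 for counting noise alone. Over 789 genes of at least 200 CPM, its median was 1.07 in RNA-rich cells and 1.16 in comparison cells in each of the 3 libraries. It was lower in RNA-rich cells for 89.9% of these genes in hCD33m, 89.4% in hCD33M and 89.7% in control. For Cst3 it was 7.19, 6.02 and 7.92 in the RNA-rich cells of hCD33m, hCD33M and control, against 18.1, 17.5 and 18.7 in the comparison cells. For P2ry12 it was 1.35, 1.44 and 1.38 in RNA-rich cells, against 2.32, 2.21 and 2.14 in comparison cells. Leaving out the 13, 5 and 4 comparison cells of hCD33m, hCD33M and control without a P2ry12 or Tmem119 UMI left these shares at 89.2%, 89.1% and 89.4%. The limits on border macrophage and monocyte UMIs were the same at any depth, so they were stricter per UMI in RNA-rich cells. Droplets with more than 1 cell were not identified. The part of either in the gene numbers and the spread was not tested.

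A few genes owed their ratio to single cells. Hbb-bs, a beta globin of red blood cells, had 4183 UMIs in the RNA-rich cells of hCD33M, of which 4173 lay in 1 cell, against 1 UMI in hCD33m and 0 in control. Cd74, the invariant chain of MHC class II, was at 110 CPM in RNA-rich cells and 106 CPM in comparison cells of hCD33m, 77.4 and 50.5 CPM in hCD33M, and 136 and 53.1 CPM in control. Of its UMIs in RNA-rich cells, 62.9%, 77.6% and 85.5% came from 5 cells each in hCD33m, hCD33M and control, and without those 5 cells in either class the level was 40.7 against 51.9 CPM in hCD33m, 17.4 against 15.1 CPM in hCD33M, and 19.6 CPM, below its comparison cells, in control. RNA-rich cells with over 5000 CPM of Cd74 numbered 4, 4 and 3 in hCD33m, hCD33M and control. Summed, they held P2ry12 at 2138, 2127 and 2570 CPM beside Cd74 at 11382, 9775 and 13985 CPM. The 10, 3 and 3 comparison cells past the same level held P2ry12 at 89.4, 0 and 0 CPM beside Cd74 at 28695, 26686 and 34668 CPM. As sums, the RNA-rich ones thus held abundant MHC class II and P2ry12 transcripts, and the comparison cells held little or no P2ry12. Sums over cells do not show whether each barcode held both. The limit of fewer than 5 UMIs of border macrophage genes was the same at any depth, so it was stricter per UMI in RNA-rich cells. Its part in this contrast was not tested. Whether 1 cell or several lay under such a barcode was not tested.

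The genotypes differed within RNA-rich cells by about as many genes as within comparison cells. Between hCD33m and control, 59 genes were at least 1.5-fold higher in hCD33m (0.885% of the genes counted) and 23 were lower (0.345%), against 60 and 19 in comparison cells. Between hCD33M and control, 48 were higher in hCD33M (0.72%) and 21 were lower (0.315%), against 41 and 21 in comparison cells. Between hCD33m and hCD33M, 29 were higher in hCD33m (0.435%) and 15 were lower (0.225%), against 32 and 13 in comparison cells. With RNA-rich cells of 12000 to under 16000 UMIs, the counts of genes higher and lower were 98 and 56, 97 and 70, and 68 and 50 in these 3 comparisons. The first and second comparison share the control library. Genes of the early response to stimulation, many of which code for transcription factors, were prominent among them. Fos was at 538 CPM in the RNA-rich cells of hCD33m, 247 CPM in hCD33M and 55.4 CPM in control, and at 502, 241 and 53.6 CPM in the comparison cells of hCD33m, hCD33M and control. Egr1 was at 759, 424 and 142 CPM in RNA-rich cells and at 633, 328 and 121 CPM in comparison cells. Jun was at 2463, 1905 and 1042 CPM in RNA-rich cells and at 2366, 1767 and 1011 CPM in comparison cells. The order of the libraries was the same for the 3 genes in both classes, and the gap between classes was far smaller than the gap between libraries. Of 24 immediate early genes measured, 16 were higher in hCD33m than in control among RNA-rich cells and 17 among comparison cells, and 13 and 12 were higher in hCD33M than in control. Further genes had like values in both classes. Rbm3, an RNA-binding protein gene that is induced by cold, was at 173 CPM in the RNA-rich cells of hCD33m and 79.6 CPM in those of hCD33M, against 179 and 80.0 CPM in the comparison cells of hCD33m and hCD33M. Control lay between them, with Rbm3 at 135 CPM in RNA-rich cells and 140 CPM in comparison cells. Hspa8, the constitutive heat shock protein, was at 925 CPM in the RNA-rich cells of hCD33M and 487 CPM in those of control, against 940 and 494 CPM in the comparison cells of hCD33M and control. Ccnd1, which codes for cyclin D1, was at 146 CPM in the RNA-rich cells of hCD33m and 239 CPM in those of control, against 151 and 237 CPM in the comparison cells of hCD33m and control. Some genes did not, such as Mum1, whose log2 ratio of hCD33m over control was 0.77 in RNA-rich cells and 0.22 in comparison cells, and Apoe, whose log2 ratio of hCD33M over control was -0.79 in RNA-rich cells and 0.10 in comparison cells.

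On the log2 scale, hCD33m lay over control by 3.28 in RNA-rich cells and 3.23 in comparison cells for Fos, by 3.08 and 3.09 for Klf2, by 2.84 and 2.90 for Fosb, by 2.72 and 2.73 for the phosphatase gene Dusp1, by 2.41 and 2.38 for Egr1 and by 1.24 and 1.23 for Jun. For hCD33M over control the same pairs were 2.16 and 2.17 for Fos, 1.92 and 1.95 for Klf2, 1.84 and 1.81 for Fosb, 1.82 and 1.74 for Dusp1, 1.58 and 1.43 for Egr1 and 0.87 and 0.81 for Jun. The interval of the difference between the classes held zero for Fos, Klf2, Fosb and Dusp1 in both comparisons, with upper bounds that reached 0.39 for Dusp1 in hCD33M. For Jun it was 0.01 (95% interval -0.03 to 0.06) in hCD33m and 0.07 (0.02 to 0.11) in hCD33M. The interval also lay off zero for Junb in hCD33m (-0.17 to -0.04) and for Jund (0.04 to 0.16) and Sgk1 (0.02 to 0.19) in hCD33M. Ier3 in hCD33M had the largest such difference, at -0.54 (-0.90 to -0.18). Its log2 ratio of hCD33M over control was -0.31 in RNA-rich cells and 0.23 in comparison cells. For Egr1 the difference between the classes was 0.03 (95% interval -0.08 to 0.15) in hCD33m and 0.14 (0.02 to 0.26) in hCD33M. Egr1 also differed between the classes within each library, with a log2 ratio of 0.29 ± 0.08, beside 0.23 ± 0.03 for the RNA-binding protein gene Zfp36l1 and 0.18 ± 0.05 for Jund. Nfkbiz, at 0.29 ± 0.15, varied more between libraries, while Fos (0.06 ± 0.04), Fosb (0.02 ± 0.04) and Btg2 (0.05 ± 0.03) lay near the median of all genes. The median log2 ratio of the 24 immediate early genes measured was 0.05, and its sign depended on the processing. It was -0.03 against comparison cells of 3000 to under 5000 UMIs and 0.11 against those of 5000 to under 8000 UMIs. Under TMM scaling it was -0.003, where all genes had -0.005.

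**Figure D5:**
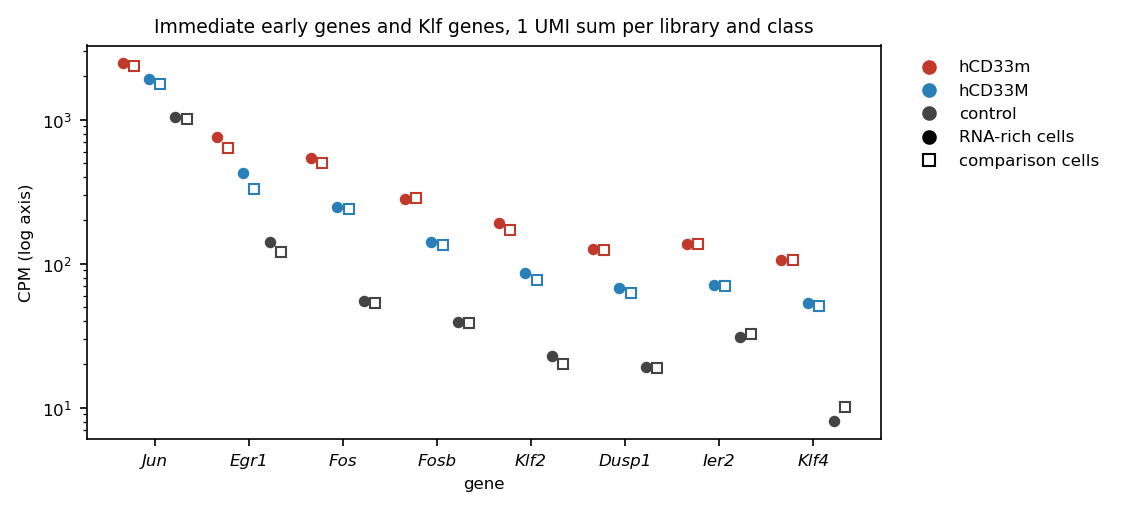
CPM on a log axis of 8 genes of the early response, with 1 filled circle for the RNA-rich cells and 1 open square for the comparison cells of each library, in the order hCD33m, hCD33M and control. Circle and square of a library lie close together for each gene, while the libraries stand apart, with hCD33m highest and control lowest.

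The ratio of RNA-rich over comparison cells differed by at least 1.5-fold between hCD33m and control for 0 genes that were higher in hCD33m (0%) and 6 that were lower (0.09%), and between hCD33M and control for 5 that were higher in hCD33M (0.075%) and 6 that were lower (0.09%). With RNA-rich cells of 12000 to under 16000 UMIs, whose sums hold fewer UMIs, the counts in both directions together were 65 for hCD33m and 99 for hCD33M. In both comparisons the lower genes included the MHC class II genes Cd74, H2-Aa, H2-Ab1 and H2-Eb1, whose log2 ratios were 0.05, 0.01, 0.13 and 0.32 in hCD33m, 0.62, 0.71, 0.47 and 0.68 in hCD33M, and 1.35, 1.81, 1.14 and 1.89 in control, and of which Cd74 had most of its RNA-rich UMIs in the few cells given above. Ttr, made by the choroid plexus, was at 0.24 CPM in RNA-rich cells and 50.7 CPM in comparison cells of hCD33m, 2.23 and 102 CPM in hCD33M, and 0.22 and 0.21 CPM in control, where it was at the level of single UMIs. The chemokine genes Ccl3 and Ccl4 and the lipid carrier gene Apoe had opposite directions in hCD33M and control and are given at the end. The genes other than these were Cbx5, Fam20b and Ypel2, with the larger ratio in hCD33M, and Rab34, with the smaller ratio in hCD33m.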

How the data were processed

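Mouse microglia of 3 libraries (hCD33m, hCD33M and control) were sequenced on the 10x Chromium 3′ platform. The deposited values are raw UMI counts, which the authors made with Cell Ranger on mm10 and read into Seurat, which kept cells above 200 genes and dropped genes seen in fewer than 3 cells. The annotation release is not given in the sources used here. The study's second experiment was not analysed here. Members and gene lists were chosen with earlier results of these data known.

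Counts were summed per library and class, scaled as CPM and compared as log2 ratios with exact conditional binomial 95% intervals, which cover counting error only. The difference of 2 ratios has a normal interval on the log scale. A mean and SD are over the 3 libraries. Genes named were those largest by ratio at 50 CPM, up to 4 per list, the markers of the selection, genes the study names for its single-cell data, and those that differ most between libraries. As no gene was called, the rule for the 12 highest and the 12 lowest called genes named none, and the 12 largest in each direction among all genes of at least 50 CPM were named in their place, after values were seen, as were Mki67, Top2a, Hbb-bs and Ttr. Lengths and positions are from GENCODE M21 on mm10, matched by symbol for 99.2% of 6664 genes. Python 3.11.15, numpy 2.4.6, scipy 1.17.1, pandas 2.3.3, matplotlib 3.10.9 and, for TMM, edgeR 4.0.16 under R 4.3.3 were used.

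The procedure was tested on simulated sums for RNA-rich against comparison cells, over 6662 genes. Of genes changed up or down by 2-fold and by 4-fold, 50 of 50 each were called, of those changed by exactly 1.5-fold 7 of 50, of those changed by 1.25-fold 0 of 50, and of 6462 unchanged genes 0. The simulated sums held counting noise only, so they do not cover genes whose UMIs lie in a few cells, such as Cd74 or Ccl4. A further 20 settings were tried as alternatives, and 1 more, without the top cell of each gene, was chosen after seeing the data.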

Additional observations from a re-analysis of the deposited data

Results flagged for a closer look

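In 3 genes the only library of hCD33M and the only library of control moved in opposite directions between RNA-rich and comparison cells, each with a counting interval off no difference. With 1 library per genotype the difference itself was not tested. Ccl4, a chemokine gene, was at 43.9 CPM in RNA-rich cells and 9.60 CPM in comparison cells of hCD33M, and at 31.7 CPM and 69.3 CPM in control, so that the log2 ratios, 2.19 and -1.13, differed by 3.32. In the RNA-rich cells of hCD33M, 299 of its 531 UMIs lay in 1 cell, and without the top 5 cells of each class it was at 10.5 CPM in RNA-rich cells and 7.93 CPM in comparison cells of hCD33M, and at 12.5 and 20.4 CPM in control. Ccl3, its neighbour in function, had log2 ratios of 0.61 in hCD33M and -0.41 in control, a difference of 1.01, with 30.9% of its UMIs in the RNA-rich cells of hCD33M in 1 cell. Without the top 5 cells of each class it was at 20.4 CPM in RNA-rich cells and 18.2 CPM in comparison cells of hCD33M, and at 22.6 and 29.9 CPM in control. Apoe, the main lipid carrier of the brain, was at 424 CPM in RNA-rich cells and 521 CPM in comparison cells of hCD33M, and at 735 and 487 CPM in control, so that the log2 ratios, -0.30 and 0.59, differed by -0.89. Without the top 5 cells of each class it was at 333 and 395 CPM in hCD33M and at 495 and 395 CPM in control, so the opposite directions did not rest on those cells alone.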

How the results depend on the processing

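The absence of calls at 1.5-fold depended on many of the choices. With cells of at most 6000 genes 1 gene was higher (H2-Eb1), with no marker limits 1 (H2-Ab1), and with marker limits under 1000 CPM 4 (Cd74, H2-Aa, H2-Ab1 and H2-Eb1), and each of these is a list member, which gives 1, 1 and 4 calls over the lists. With a mean of at least 5 CPM 1 gene was higher, with no minimum CPM 1 was higher and 1 lower. With comparison cells of 3000 to under 5000 UMIs 1 was lower (Gm26669), and with the mean of the CPM of each cell 1 was lower (Ttr). At a limit of 25% higher or 20% lower, 3 were higher, 5 lower and 1 list member was called. Leaving out 1 library in turn gave 0 to 3 genes higher, 0 to 1 lower and 0 to 3 calls over the lists, the 3 without hCD33m being Cd74, H2-Aa and H2-Eb1, the 1 lower without hCD33M being Ccl4 and the 1 lower without control being Ttr.

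The share of RNA-rich cells in hCD33m, hCD33M and control was 15.2%, 12.96% and 11.0% from 10000 UMIs, 5.67%, 6.18% and 4.38% from 16000 UMIs, 4.80%, 3.44% and 3.32% for 12000 to under 16000 UMIs, 11.4%, 10.9% and 8.81% with at most 5% mitochondrial UMIs, and 9.08%, 7.67% and 6.64% with at most 6000 genes. With RNA-rich cells of 12000 to under 16000 UMIs, whose sums hold fewer UMIs, genes of hCD33m against control were 98 higher and 56 lower, of hCD33M against control 97 and 70, and of hCD33m against hCD33M 68 and 50. Effects that differed numbered 65 for hCD33m and 99 for hCD33M, and the longest group of genes lay over the shortest by 0.14 on the log2 scale, against 0.20. With RNA-rich cells from 16000 UMIs, 15 effects differed for hCD33m. Over the alternatives the gap by length was 0.14 to 0.22. TMM scaling moved the median of all genes by -0.05. Of 2703 ratios of named genes under alternatives, 536 moved by more than the SD between libraries. Genes per cell at equal depth kept their side when thinned to 2000 UMIs.

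RNA-rich and comparison cells were compared within each library throughout. No paired analysis was possible because, between genotypes, each has 1 library and the labels give no shared replicate numbers. Depth limits the genes near 20 CPM, the pooled mice were not separated, and the sums weigh cells by their UMIs.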
